A study of Mus musculus with 93 samples.

Results

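Nkx2-5, Isl1, Hand1, Hand2 and Hopx are 5 transcription regulators of the early heart, named as a list of genes and followed here through sorted heart field progenitors. All 5 were found among the 24514 genes of the count table. They were read in 93 RNA-seq libraries of 10 sorted cells each, prepared by oligo-dT priming, template switching and PCR without molecular identifiers. The cells came from Hcn4GFP; Tbx1Cre; Ai9 mouse embryos, or from spheroids grown for 5.5 days from an embryonic stem cell line derived from these mice, so all cells carried the same 3 alleles. Hcn4-GFP reports cells that express Hcn4, an ion channel gene of the first heart field (FHF), and Ai9 turns red (RFP) for good in any cell in which Tbx1-Cre has acted, so RFP marks descendants of Tbx1-expressing cells of the second heart field (SHF) and not Tbx1 expression itself. Per the labels, 5 libraries held embryo GFP+ cells, 4 embryo RFP+ cells, 38 spheroid GFP+ cells and 46 spheroid RFP+ cells. The sample titles give E8.5 and the protocol text E7.75, and the stage could not be settled. Neither source says which wells came from the same embryo or the same differentiation, so n counts wells, and p-values measure the spread between wells.

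In the heart, these genes form an early regulatory layer. Nkx2-5 is a homeodomain factor switched on as progenitors become heart muscle, whereas Isl1 is a LIM-homeodomain factor of progenitors that is lowered as they differentiate. Hand1 and Hand2 are related basic helix-loop-helix factors that pair with E proteins and bind the E-box. In the later heart, Hand1 is known for the left ventricle and Hand2 for the right ventricle and outflow tract, and Hand1 is also a gene of trophoblast and extraembryonic mesoderm. Hopx is a homeodomain-only protein that does not bind DNA. It acts through partners such as Srf and Hdac2 and is known as a gene downstream of Nkx2-5.

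In GRCm38, Nkx2-5 (ENSMUSG00000015579.5) lies on the minus strand at chr17:26838664-26845009, Isl1 (ENSMUSG00000042258.13) on the minus strand at chr13:116298281-116309689, and Hand1 (ENSMUSG00000037335.13) on the minus strand at chr11:57828705-57832818. Hand2 (ENSMUSG00000038193.4) lies on the plus strand at chr8:57320983-57324633, and Hopx (ENSMUSG00000059325.14) on the minus strand at chr5:77086988-77115121. Exons of the antisense genes Hand2os1 and Hopxos overlap those of Hand2 and Hopx. Since the strand setting of the counting is not given in the sources used here, reads from these pairs cannot be told apart.

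Stretches just before the annotated start sites of Hand2, Isl1 and Hopx are shown because the first pair of genes was higher in GFP+ spheroid cells and Hopx was lower (values below in the spheroid comparison). Capitals mark the E-box CANNTG, the kind of site that Hand factors bind as dimers, and GATAA, the core of a GATA factor site. Both were searched on both strands. The sequences are from RefSeq (GRCm38.p6), 5′ to 3′ along the gene.
Hand2, chr8:57320733-57320982, plus strand: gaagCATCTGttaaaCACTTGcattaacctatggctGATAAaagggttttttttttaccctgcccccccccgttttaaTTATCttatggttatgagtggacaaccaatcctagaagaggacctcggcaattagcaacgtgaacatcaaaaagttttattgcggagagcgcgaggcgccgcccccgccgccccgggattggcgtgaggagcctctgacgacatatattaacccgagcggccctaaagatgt
Isl1, chr13:116309690-116309938, minus strand: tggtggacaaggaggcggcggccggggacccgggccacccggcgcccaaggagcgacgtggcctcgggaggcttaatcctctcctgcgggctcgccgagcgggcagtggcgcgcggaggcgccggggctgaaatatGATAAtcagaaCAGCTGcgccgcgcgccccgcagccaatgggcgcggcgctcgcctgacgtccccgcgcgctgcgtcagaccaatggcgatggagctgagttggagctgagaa
Hopx, chr5:77115124-77115373, minus strand: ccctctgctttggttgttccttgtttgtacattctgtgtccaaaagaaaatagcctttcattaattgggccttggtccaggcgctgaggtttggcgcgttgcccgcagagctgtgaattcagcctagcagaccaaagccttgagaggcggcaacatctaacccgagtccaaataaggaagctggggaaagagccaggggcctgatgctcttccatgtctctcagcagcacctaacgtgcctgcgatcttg
The Hand2 stretch held 2 E-box matches and 2 GATAA matches, the Isl1 stretch 1 of each, and the Hopx stretch neither. Among 32851 RefSeq promoters, 66.2% held CANNTG and 22.6% held GATAA in the 250 bases before the start. The Hand2 stretch also falls within an exon of Hand2os1, and a second Hopx start on the same chromosome had 1 E-box match and no GATAA match. AAGTG, the core of an Nkx2-5 site, TATAA and CCAAT were also searched, and are held by 40.7%, 22.8% and 33.8% of the RefSeq promoters. The Hand2 stretch had 1 AAGTG match, which overlaps an E-box, and 2 CCAAT matches, the Isl1 stretch 2 and the Hopx stretch 1 CCAAT match, and none of the 3 had TATAA. At the second Hopx start there were 2 AAGTG matches and 1 CCAAT match. The stretch before the Nkx2-5 start, not printed, was searched too and had 1 E-box match and none of the other 4 motifs. Whether any match bears on the levels was not tested.

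Counted reads per library ran from 712732 to 2525460 in embryo GFP+ cells, from 1246546 to 1479957 in embryo RFP+ cells and from 445071 to 5658882 in spheroid RFP+ cells. In spheroid GFP+ cells 37 libraries held 828193 to 4371849 reads, and the library of well C9 held 6288 reads. C9 had no read of any of the 5 genes, which allows up to 220 CPM (reads scaled to a common library total, with TMM factors) from 3 reads, so its zeros carry little information. Embryo GFP+ libraries detected fewer genes (6189 to 8302) than embryo RFP+ libraries (10263 to 13052). The median library detected 13689 genes in spheroid GFP+ cells and 12948.5 in spheroid RFP+ cells. Mean Hcn4 was at 14.9 CPM in embryo GFP+ cells and 0.36 CPM in embryo RFP+ cells, and at 7.36 CPM and 0.44 CPM in spheroids. By well, embryo GFP+ cells had Hcn4 at 1.08, 33.3, 6.20, 32.7 and 1.07 CPM in A12, B12, C12, D12 and E12. A12 and E12 held 1 Hcn4 read each, and the embryo RFP+ well H11 held 2 reads (1.43 CPM). Tbx1 had no reads in embryo GFP+ cells and was at 3.94 CPM in embryo RFP+ cells, and at 0.03 CPM and 2.51 CPM in spheroid GFP+ and RFP+ cells. The summed level of 10 cardiomyocyte markers was 18726 to 54418 CPM in embryo GFP+ wells and 1241 to 2329 CPM in embryo RFP+ wells, and 0 to 1414 CPM (median 56.1) and 13.9 to 142 CPM (median 62.0) in spheroid GFP+ and RFP+ wells, so heart muscle RNA was low in nearly all spheroid wells. GFP+ and RFP+ spheroid cells sat in separate plate columns (7 to 11 and 1 to 6), and what is due to the gate and what to the column cannot be told apart. Embryo GFP+ cells sat in column 12 and embryo RFP+ cells in columns 11 and 12, apart from spheroid cells of the same gate. So the same holds for source and column where spheroid and embryo are compared. In bulk samples, fewer cells that express a gene and less RNA per cell cannot be told apart either.

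Nkx2-5 was a gene of the embryo libraries: it was read in 7 of the 9 embryo wells and in 3 of the 84 spheroid wells. In embryo GFP+ cells it was at 21.5, 30.3, 0, 38.3 and 0 CPM in wells A12, B12, C12, D12 and E12. In embryo RFP+ cells it was at 0.729, 3.51, 4.22 and 1.43 CPM in wells F12, G11, G12 and H11, from 1 to 5 reads a well. So 3 of the embryo GFP+ wells lay above all RFP+ wells, and the other two had no read, where 3 reads would be 3.72 CPM in C12 and 3.21 CPM in E12. A12 was of like depth, with 3 reads at 3.23 CPM, and held 20 Nkx2-5 reads. These limits cover read depth only. C12 detected 6189 genes and E12 6628, and other genes were also unread in some embryo GFP+ wells and high in others. Mef2a ran from 0 to 383 CPM and Bmp2 from 0 to 130 CPM over the 5 wells. Loss of RNA before amplification was not tested.

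The mean Nkx2-5 level was 18.02 ± 17.5 CPM (SD, n = 5) in embryo GFP+ cells and 2.47 ± 1.66 CPM (SD, n = 4) in embryo RFP+ cells, and the difference in mean log2 CPM was 1.31 (exact permutation p = 0.333, two-sided, smallest possible p 0.00794). In spheroid GFP+ cells the 38 wells held 5 Nkx2-5 reads among 71507498, with a highest well of 2.34 CPM. In spheroid RFP+ cells the 46 wells held 1 read among 75830855. Pooled over wells, the rate was 332-fold higher in embryo than in spheroid GFP+ cells (95% exact interval 140 to 1037) and 177-fold higher in embryo than in spheroid RFP+ cells (26.6 to 7533), where the intervals cover counting error only and reads amplified by PCR are not independent molecules. Well by well, the difference in mean log2 CPM was 2.76 for GFP+ cells (exact permutation p = 0.00081) and 1.501 for RFP+ cells (exact permutation p = 4.34e-06, two-sided). Embryo RFP+ wells and spheroid RFP+ wells did not overlap, but the gap rests on single reads. The lowest embryo well, F12 (0.729 CPM), and the highest spheroid well, G4 (0.470 CPM), held 1 read each. In the shallowest spheroid RFP+ well, no read allows up to 6.77 CPM, above every embryo RFP+ well. How many of all genes separate these groups was not counted. Nkx2-5 failed the filter on low counts in all 4 edgeR comparisons and has no fold change from them.

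The embryo GFP+ wells were not alike in the other members. Hand2 had reads in the same 3 wells as Nkx2-5 and none in C12 and E12. C12 had reads of Isl1 alone among the 5 genes, at 212 CPM. E12 had Isl1 at 64.2 CPM, Hand1 at 97.3 CPM and Hopx at 1.07 CPM, the last from 1 read. Actc1, the cardiac actin, was at 7176 CPM in C12 and 18811 CPM in E12, against 11193 to 22180 CPM in A12, B12 and D12. Tbx5, a T-box factor of the FHF, was at 221 CPM in C12 and 152 CPM in E12, within the 61.4 to 327 CPM of A12, B12 and D12. The summed pluripotency markers, nearly all Tdgf1, were at 0 CPM in C12 and 492 CPM in E12, and at 0, 415 and 31.3 CPM in A12, B12 and D12. Pou5f1 and Zfp42 had no reads in any embryo well. Why C12 and E12 held no Nkx2-5 or Hand2 reads was not tested.

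**Figure D1:**
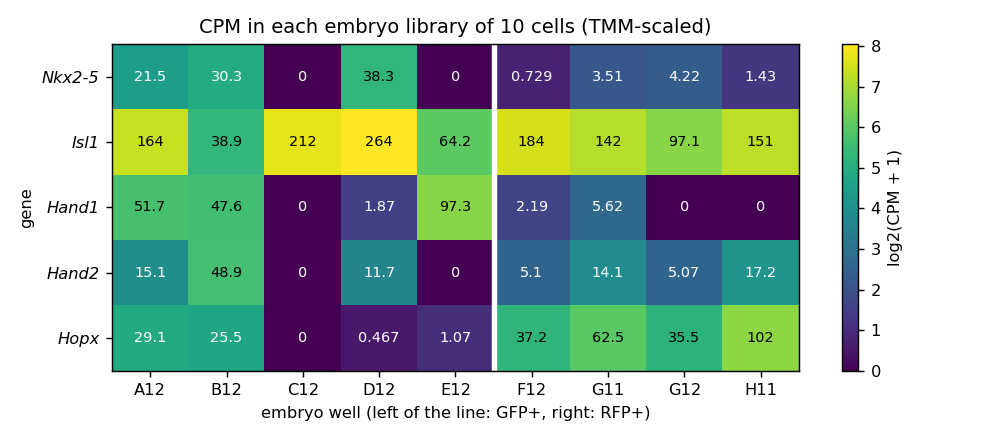
CPM of the 5 genes (rows) in the 9 embryo libraries (columns, GFP+ left of the white line, RFP+ right), with color on a log2(CPM + 1) scale and the CPM printed in each cell. Nkx2-5 and Hand2 are at 0 in C12 and E12, Isl1 is present in all 9 wells, and Hopx is higher in the 4 RFP+ wells (35.5 to 102 CPM) than in any GFP+ well.

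The first comparison asked how the factors differ between the 2 heart fields in the embryo. Isl1 and Hand2 were at similar mean levels in both fields. Hopx was higher in every RFP+ well, though not called in the main test below. Nkx2-5 and Hand1 were high in some GFP+ wells only. edgeR's quasi-likelihood test called 858 of 8503 genes at a Benjamini-Hochberg adjusted p under 0.1 (10.1%). By direction, 3.88% of the tested genes were up in GFP+ cells and 6.21% up in RFP+ cells. It called 0 of the 3 members it tested, and none of the 3 had an unadjusted p under 0.05. DESeq2, which tested all 5, called Hand1 (log2 fold change 4.52, adjusted p = 0.051). In all, DESeq2 called 1945 of 13897 genes.

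Isl1 was at 164, 38.9, 212, 264 and 64.2 CPM in the embryo GFP+ wells and at 184, 142, 97.1 and 151 CPM in the RFP+ wells. The RFP+ wells lay inside the range of the GFP+ wells, which spread more widely. The edgeR log2 fold change was 0.09 (95% interval -1.18 to 1.36, adjusted p = 0.987), which leaves room for a difference of over 2-fold either way.

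Hand1 was at 51.7, 47.6, 0, 1.87 and 97.3 CPM in the GFP+ wells and at 2.19, 5.62, 0 and 0 CPM in the RFP+ wells. So 3 GFP+ wells were above every RFP+ well, and the rest of the GFP+ wells were among them. The means were 39.7 ± 40.4 CPM (SD, n = 5) and 1.95 ± 2.65 CPM (SD, n = 4), with a difference in mean log2 CPM of 2.71 (exact permutation p = 0.143). Hand1 failed the filter on low counts in edgeR. The summed extraembryonic and lateral mesoderm markers, led by Bmp4, were at 277 to 617 CPM in GFP+ wells and 42.2 to 186 CPM in RFP+ wells, and their part in the Hand1 values was not tested.

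Hand2 was at 15.1, 48.9, 0, 11.7 and 0 CPM in the GFP+ wells and at 5.1, 14.1, 5.07 and 17.2 CPM in the RFP+ wells. It was read in all 4 RFP+ wells and in 3 of 5 GFP+ wells, and the groups overlapped. The edgeR log2 fold change was 0.56 (95% interval -2.75 to 3.88, adjusted p = 0.960) and turned to -0.60 without B12, the highest well.

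Hopx was at 29.1, 25.5, 0, 0.467 and 1.07 CPM in the GFP+ wells and at 37.2, 62.5, 35.5 and 102 CPM in the RFP+ wells. The groups did not overlap. How many of all genes separate the groups in this way was not counted, here or in the later comparisons. The 6.21% of genes that edgeR called higher in RFP+ cells is a different measure. C12, D12 and E12 held 0, 1 and 1 Hopx reads. Embryo GFP+ libraries detected fewer genes (6189 to 8302) than embryo RFP+ libraries (10263 to 13052), and the part of this in the Hopx difference was not tested. The difference in mean log2 CPM was -3.43 (exact permutation p = 0.0397, unadjusted for the other members), and it was -2.90 to -4.07 when each embryo library was left out in turn. edgeR estimated a log2 fold change of -2.38 (SE 1.496, adjusted p = 0.565), and with adjusted deviances in place of legacy ones it called Hopx (log2 fold change -2.26, adjusted p = 0.087). That run called 1765 of 8503 genes, against 858 in the main run. The summed endothelial markers were at 0 to 89.3 CPM in GFP+ wells and 18.6 to 304 CPM in RFP+ wells, highest in H11, the well highest in Hopx. Blood globins were read almost solely in F12 (Hba-x at 391 CPM). The part of these cells in the Hopx difference was not tested.

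Around the members, the cardiac gene lists separated the fields clearly in the embryo. The lists were chosen with earlier results of these data known, so this is a description and not independent support. Of 12 tested core cardiac factors, 5 were higher in GFP+ cells and none in RFP+ cells, with a median log2 fold change of 3.02 against -0.09 over all genes. Tbx5 was at 177 CPM against 0.72 CPM (log2 fold change 7.80), and Tbx20, another T-box factor, at 588 CPM against 3.63 CPM (7.32). Gata4, a zinc finger factor that works with Nkx2-5, was at 138 CPM against 6.32 CPM, and Myocd, a coactivator of Srf, at 891 CPM against 60.9 CPM (log2 fold changes 4.49 and 3.91). Of 11 tested heart muscle genes, 9 were higher in GFP+ cells and none in RFP+ cells (median 4.45). Xirp1, an intercalated disc gene, had a log2 fold change of 5.57, Ankrd1, a stress-responsive sarcomere gene, of 5.31, Actc1 of 5.29, and Smyd1, a muscle methyltransferase gene needed for Hand2 expression in the heart, of 4.96.

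Among 8 tested SHF genes, 4 were higher in RFP+ cells and none in GFP+ cells (median -4.64, unchanged with genes at 0 set at their bound). Nkx2-6, a paralog of Nkx2-5, had 405 reads in RFP+ cells and none in GFP+ cells, at least 180-fold higher against a floor of 3 reads over the group. Foxc2, a factor of pharyngeal mesoderm, was at least 46.6-fold higher by the same reckoning, and Six2 had a log2 fold change of -4.98. Of 7 tested dimer partners and cofactors, 1 was higher in RFP+ cells, the corepressor Trim28 (log2 fold change -1.31). On the Bmp side, 3 of 12 tested genes were called: Bmp4, a ligand (2.09), and Id2 (1.16) were higher in GFP+ cells and Id3 (-1.68) in RFP+ cells, where Id proteins are known to sequester E proteins.

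The second comparison asked the same of the spheroids. Hand1 and Hand2 were each about 20 times higher in GFP+ than in RFP+ wells on average, Isl1 was 2.51 times higher, Hopx was 2.31 times higher in RFP+ wells, and Nkx2-5 was nearly unread in both. edgeR called 7747 of 9940 genes (77.9%), with 40.1% up in GFP+ cells and 37.8% up in RFP+ cells, so a call alone sets a member apart from few genes. All 4 tested members were called.

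Hand1 ranged in spheroid GFP+ wells from 0 through a median of 32.2 to 134 CPM, and in RFP+ wells from 0 through a median of 0 to 19.4 CPM. It was read in 36 of 38 GFP+ wells and 14 of 46 RFP+ wells, and 25 GFP+ wells lay above the highest RFP+ well. The means were 36.5 ± 29.1 CPM (SD, n = 38) and 1.66 ± 4.15 CPM (SD, n = 46), and the edgeR log2 fold change was 4.39 (SE 0.39, adjusted p = 2.2e-19).

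Hand2 ranged in GFP+ wells from 0 through 17.4 to 38.5 CPM, or from 1.11 CPM without C9, and in RFP+ wells from 0 through 0 to 8.25 CPM. It was read in 37 of 38 GFP+ wells and 21 of 46 RFP+ wells, and 31 GFP+ wells lay above the highest RFP+ well. In edgeR its log2 fold change was 4.24 (SE 0.32, adjusted p = 3.1e-24). Fewer GFP+ wells overlapped the RFP+ range for Hand2 than for Hand1.

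Isl1 ranged in GFP+ wells from 0 through 59.3 to 157 CPM, or from 21.2 CPM without C9, and in RFP+ wells from 8.03 through 23.5 to 47.3 CPM. Every RFP+ well had Isl1 reads, and 26 GFP+ wells lay above all of them. For Isl1 edgeR gave a log2 fold change of 1.40 (SE 0.12, adjusted p = 2.9e-18). Isl1 is also a gene of motor neurons. The 4 motor neuron markers (Mnx1, Lhx3, Chat and Olig2) had no reads in the embryo and summed to at most 10.6 CPM in any spheroid well. The wider neural markers, given below, had a higher median in GFP+ wells. The part of neural cells in the Isl1 levels was not tested.

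Hopx ranged in GFP+ wells from 0 through 7.17 to 43.7 CPM and in RFP+ wells from 2.37 through 20.2 to 51.8 CPM. The groups overlapped widely, with 3 of 38 GFP+ wells above the RFP+ median and 8 below the lowest RFP+ well. In edgeR, Hopx had a log2 fold change of -1.11 (SE 0.23, adjusted p = 8.2e-06). The mean of Isl1, Hand1 and Hand2 was higher in GFP+ wells within each of the 8 plate rows, and that of Hopx was higher in RFP+ wells in 7 of 8.

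Markers of other cells also differed between the gates. The summed pluripotency markers had a median of 178 CPM in GFP+ wells and 44.2 CPM in RFP+ wells, ranging from 70.4 to 1673 CPM and from 7.39 to 563 CPM, with all 8 genes read in both. The 7 trophoblast markers, some of them expressed with Hand1 in the placenta, had medians of 75.5 CPM and 19.4 CPM, with ranges of 0 to 141 CPM and 0 to 160 CPM. The 8 extraembryonic and lateral mesoderm markers had medians of 86.0 CPM (0 to 181) and 35.4 CPM (8.94 to 88.2), and the 6 neural markers 60.6 CPM (0 to 121) and 35.7 CPM (13.7 to 64.2). The definitive and visceral endoderm markers had medians of 4.22 CPM and 101 CPM, most of it Cer1. Their part in the member differences was not tested.

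**Figure D2:**
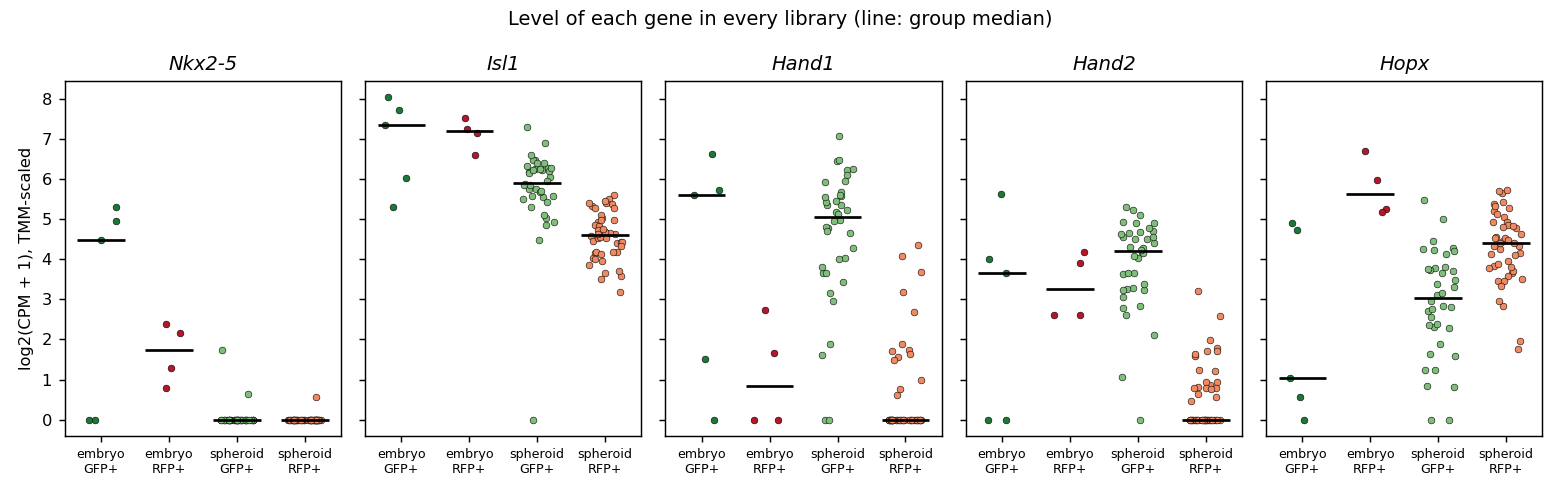
Level of each gene as log2(CPM + 1) in every library, by group (5, 4, 38 and 46 libraries), with the group median as a line. Nkx2-5 sits at 0 in nearly all spheroid wells, Hand1 and Hand2 separate spheroid GFP+ from RFP+ wells, and the spheroid GFP+ point at 0 for Isl1 is the shallow library C9.

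In spheroids, 6 of 13 core cardiac factors and 2 of 14 heart muscle genes passed the filter on low counts. Of the 6, 3 were higher in GFP+ cells (Mef2c, Mef2d and Mef2a, MADS-box factors, with log2 fold changes of 0.98, 0.85 and 0.80) and Myocd was higher in RFP+ cells (-0.70), with a median of 0.62 against 0.02 over all genes. Of the heart muscle genes, Myl7, an atrial myosin light chain, was called (1.44), with a few GFP+ wells carrying the higher mean. Its mean was 42.3 CPM (median 2.03, highest well 368) in GFP+ cells and 16.6 CPM (median 6.92, highest well 71.5) in RFP+ cells, so the median well was lower in GFP+ cells. Actc1 had a log2 fold change of 0.27 (adjusted p = 0.519). Tbx5 was at 1.06 CPM and Tbx20 at 3.59 CPM in spheroid GFP+ cells, too low for the test.

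All 7 tested dimer partners and cofactors were higher in RFP+ cells (median -0.76). Tcf3, Tcf4 and Tcf12, the E proteins that pair with Hand factors, had log2 fold changes of -0.92, -0.88 and -0.57. Those of Trim28, Cited2, a coactivator-binding protein, and Hdac2, the partner of Hopx, were -0.90, -0.76 and -0.74. Of 6 tested SHF genes, 5 were higher in RFP+ cells (median -2.31), among them Six2 (-5.73), Foxc2 (-5.56) and Foxc1 (-2.22). On the Bmp side, 7 of 11 tested genes were higher in GFP+ cells and 2 in RFP+ cells (median 0.28), led by Msx2, a Bmp target (3.57), Bmp4 (2.15), Bmp7 (0.82) and Id2 (0.77).

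**Figure D3:**
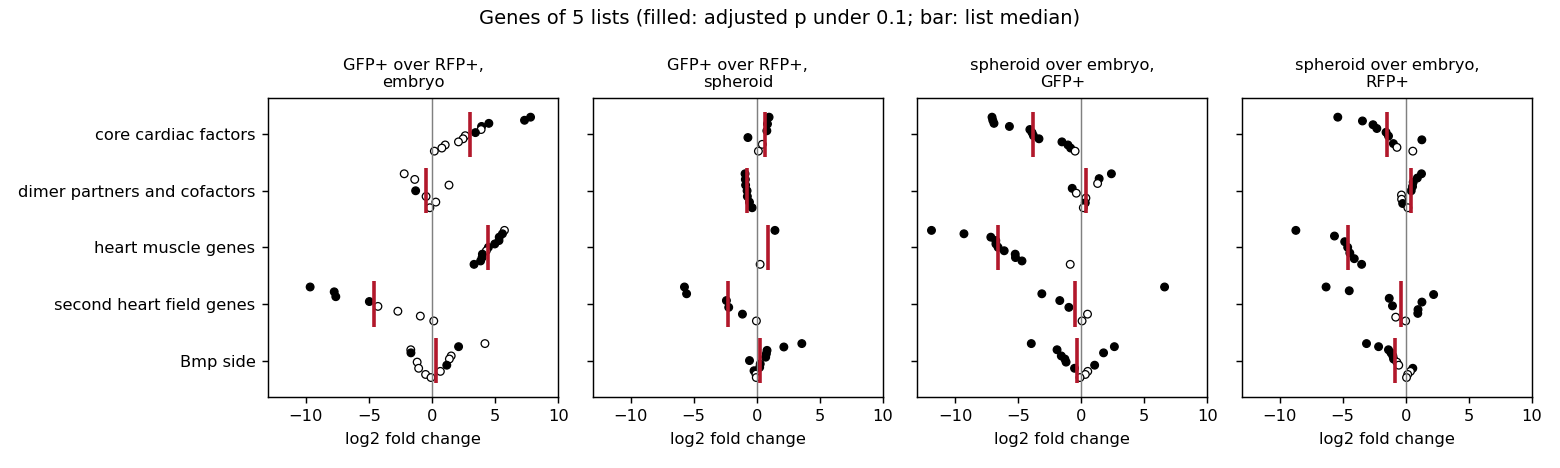
edgeR log2 fold changes (x axis) of the tested genes of 5 lists in the 4 comparisons, filled where the adjusted p was under 0.1, with a bar at each list's median. In the embryo GFP+ over RFP+ panel the heart muscle genes lie right of 0 (median 4.45) and the SHF genes mostly left (median -4.64, with fitted values for genes at 0 in GFP+ cells). In the spheroid panel all 7 tested dimer partners lie left of 0.

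The GFP+ over RFP+ change was then compared between embryo and spheroid. The difference of the changes (embryo minus spheroid) was -1.30 for Isl1 (SE 0.60, unadjusted p = 0.0667), -3.68 for Hand2 (SE 1.57, unadjusted p = 0.051) and -1.27 for Hopx (SE 1.51, unadjusted p = 0.430), from separate fits with 7 degrees of freedom. None passed after adjustment over the 8182 genes tested in both (adjusted p = 0.448, 0.390 and 0.902), of which 465 were called (5.68%). So the called differences of Isl1 and Hand2 in spheroids, against none in the embryo, were not shown to differ between the sources. Hand1 and Nkx2-5 could not enter this test.

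The third comparison set GFP+ spheroid cells against GFP+ embryo cells, and showed a lower Isl1 level in spheroids and no called change of Hand1, Hand2 or Hopx. edgeR called 8036 of 11822 genes (68.0%), with 5710 (48.3%) higher in spheroids and 2326 (19.7%) in the embryo. The median gene was higher in spheroids by 0.67 on the log2 scale, or by 0.22 with DESeq2's size factors, where the split of calls was 4687 against 3473. Of the 4 tested members, 1 was called.

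Isl1 was at 62.6 ± 28.2 CPM (SD, n = 38) in spheroid and 149 ± 95.8 CPM (SD, n = 5) in embryo GFP+ cells. The log2 fold change was -1.05 (SE 0.31, adjusted p = 0.00132), and it was -1.53 with DESeq2's size factors and -0.74 to -1.30 when each embryo library was left out. The permutation test over wells gave p = 0.0685, and 0.00573 without C9 (both exact). Hand1 had a log2 fold change of 0.07 (95% interval -1.20 to 1.34) and Hopx of -0.05 (-1.43 to 1.34), with the embryo wells spread over most of the spheroid range. Hand2 had a log2 fold change of 0.31 (-0.75 to 1.37, adjusted p = 0.634), and without B12, the embryo well highest in Hand2, it was called higher in spheroids (1.54, adjusted p = 0.0265). The signs of Hand1 and Hand2 turned with DESeq2's size factors (-0.42 and -0.04).

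Meanwhile the other cardiac factors were much lower in spheroid GFP+ cells. Of 12 tested core factors, 11 were lower and none higher (median -3.85), led by Tbx20 (-7.07), Myocd (-7.01), Tbx5 (-6.92) and Mef2c (-5.69). Of 11 tested heart muscle genes, 10 were lower (median -6.59), with Ankrd1 falling from 2604 to 0.55 CPM, Actc1 from 14363 to 20.0 CPM and Myl7 from 7106 to 42.3 CPM, and Myl4, an atrial light chain, at -6.77. So these heart muscle genes were lower by far more than the intervals of Hand1 and Hand2 allow for those genes.

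Other lists split. Of 8 tested dimer partners and cofactors, 3 were higher in spheroids, led by Tcf12 (2.39) and Hdac2 (1.42), and Cited2 was lower (-0.72), with a median of 0.34, below the shift of the median gene. Of 6 tested SHF genes, 1 was higher in spheroids and 3 were lower (median -0.46), among the latter Sema3c, a guidance gene of the outflow tract (-3.13). On the Bmp side 3 were higher and 6 lower of 12 tested (median -0.32), led by Bmp2 (-3.96), Smad4, the shared Smad (2.62), Bmp4 (-1.92) and Msx2 (1.77).

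The fourth comparison set RFP+ spheroid cells against RFP+ embryo cells. Isl1, Hopx and Hand2 were lower in spheroids, the last outside edgeR's filter, and Hand1 was low in both. edgeR called 4745 of 11147 genes (42.6%), with 2504 (22.5%) higher in spheroids and 2241 (20.1%) in the embryo. It called 2 of the 3 members tested, both lower.

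Isl1 was at 24.9 ± 10.2 CPM (SD, n = 46) in spheroids and 143.6 ± 35.97 CPM (SD, n = 4) in the embryo, and all 46 spheroid wells lay below the lowest embryo well. The log2 fold change was -2.54 (SE 0.27, adjusted p = 4.2e-15), and it was -2.40 to -2.68 when each embryo library was left out. Hopx was at 22.2 ± 12.6 CPM (SD, n = 46) and 59.4 ± 31.3 CPM (SD, n = 4), with 38 of 46 spheroid wells below the lowest embryo well. Its log2 fold change was -1.43 (SE 0.39, adjusted p = 0.000934), and -1.03 without H11 (adjusted p = 0.0509). Hand2 was at 0.82 ± 1.53 CPM (SD, n = 46) and 10.4 ± 6.22 CPM (SD, n = 4), with 45 of 46 spheroid wells below the lowest embryo well. It failed edgeR's filter, the permutation test over wells gave a difference in mean log2 CPM of 2.59 (exact permutation p = 1.74e-05), and DESeq2 called it (log2 fold change -3.67, adjusted p = 0.00471). Hand1 was at 1.66 CPM and 1.95 CPM and had a log2 fold change of -0.21 (95% interval -2.81 to 2.40).

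The lists followed in part. Of 10 tested core cardiac factors, 7 were lower in spheroid RFP+ cells and Mef2d was higher (median -1.47 against 0.04 over all genes), led by Gata5 (-5.39), Mef2c (-3.44), Myocd (-2.60) and Gata6 (-2.30). All 7 tested heart muscle genes were lower (median -4.61), led by Ankrd1 (-8.71), Myl4 (-5.65), Myl7 (-4.84) and Tnnt2, cardiac troponin T (-4.61). Of 9 tested dimer partners, 5 were higher and 1 lower (median 0.43), led by Cited2 (1.24) and Tcf4 (0.91). Of 10 tested SHF genes, 4 were lower and 4 higher (median -0.41): Nkx2-6 (-6.32) and Tcf21, a basic helix-loop-helix factor (-4.48), were lower, as was the ligand Fgf8 (-1.32), and Foxc1 (2.20) was higher. On the Bmp side, 6 of 12 tested genes were lower and 1 higher (median -0.84), led by Msx2 (-3.12) and Bmp4 (-2.16).

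**Figure D4:**
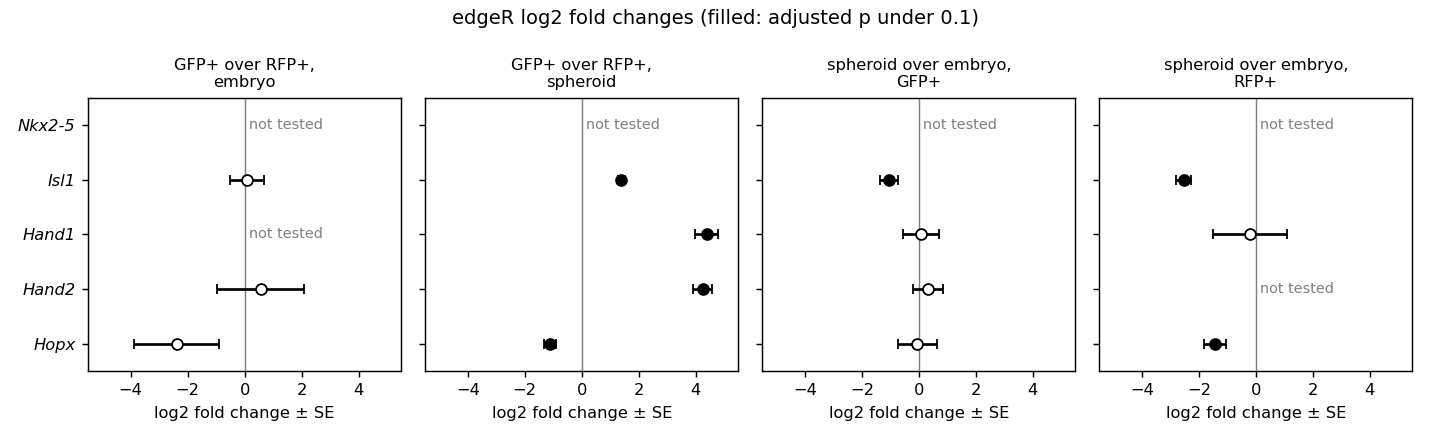
edgeR log2 fold changes of the 5 genes with their standard errors (x axis) in the 4 comparisons, filled where the adjusted p was under 0.1, and marked as not tested where a gene failed the filter on low counts. In the spheroid GFP+ over RFP+ panel Hand1 (4.39) and Hand2 (4.24) lie far right of Isl1 (1.40) and Hopx lies left (-1.11), and Isl1 is left of 0 in both spheroid over embryo panels.

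Over the 4 groups the members fell into different orders of level, taken by mean CPM and set against 30 permutation tests whose p-values are not adjusted. The 4 comparisons above share groups of libraries, so they are not independent of each other. Isl1 was highest in the 2 embryo groups, which did not differ beyond their spread (exact permutation p = 0.706), followed by spheroid GFP+ cells (exact permutation p = 0.0577 against embryo RFP+ cells, and 0.000227 without C9) and spheroid RFP+ cells (permutation p = 1.0e-05, with 100000 resamples, which allow none smaller). Hand1 had higher means in both GFP+ groups (exact permutation p = 0.432 between them) and lower means in both RFP+ groups (exact permutation p = 0.522). Spheroid GFP+ and embryo RFP+ cells differed (exact permutation p = 0.000706). The 2 embryo groups did not differ beyond their spread in this test (exact permutation p = 0.143), with 3 of 5 GFP+ wells above every RFP+ well. DESeq2 did call Hand1 between them (log2 fold change 4.52, DESeq2 adjusted p = 0.051). For Hand2, the other 3 groups did not differ beyond their spread in neighbouring pairs (exact permutation p = 0.0595 and 0.667), and spheroid RFP+ cells stood below them (exact permutation p = 1.74e-05 against embryo RFP+ cells). The first of these p-values fell to 0.0315 with a prior count of 0.5 and 0.0275 without C9. Hopx was highest in embryo RFP+ cells, then in spheroid RFP+ cells (exact permutation p = 0.00294), and lower in embryo GFP+ cells (exact permutation p = 0.0016) and spheroid GFP+ cells (exact permutation p = 0.380 between these).

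Per kilobase of exon, levels of the members can be set against each other. Isl1 led in embryo GFP+ cells (mean 37.5 CPM per kb), followed by Hand1 (19.9), Nkx2-5 (10.5), Hopx (7.40) and Hand2 (6.43). In embryo RFP+ cells Hopx (39.2 CPM per kb) and Isl1 (36.3) led and Hand1 was last (0.98). In spheroid GFP+ cells Hand1 (18.3 CPM per kb) and Isl1 (15.8) led, and in spheroid RFP+ cells Hopx (14.6) and Isl1 (6.30). The SDs were 24.2 and 20.2 CPM per kb for the first pair in embryo GFP+ cells and 14.6 and 7.13 in spheroid GFP+ cells, so the order within these pairs lies inside the spread between wells.

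Across wells of 1 population, Hand1 and Hand2 varied together in spheroid GFP+ cells. Over 37 wells with at least 100000 reads, Pearson's r of log2 CPM was 0.58 (permutation p = 0.0002, adjusted p = 0.004 over 20 relations) and Spearman's rho 0.48 (permutation p = 0.00296, adjusted p = 0.0592). Without the 2 wells farthest from the Hand1 median, r fell to 0.34 (permutation p = 0.0465). Within plate columns 7 to 10, of 7 or 8 wells each, rho was 0.74, 0.38, 0.64 and 0.71, and in column 11, of 6 wells, it was -0.31. Isl1 and Hand2 had an r of 0.40 (permutation p = 0.0144, adjusted p = 0.144) and a rho of 0.42 (permutation p = 0.00956, adjusted p = 0.0956), and 0.35 without 2 wells (permutation p = 0.0415). Within plate columns 7 to 11 their rho was 0.31, 0.69, 0.46, 0.24 and 0.09. In spheroid RFP+ cells, where Hand1 and Hand2 were read together in 6 of 46 wells, their r was 0.08 (permutation p = 0.586) and rho -0.03 (permutation p = 0.834).

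**Figure D5:**
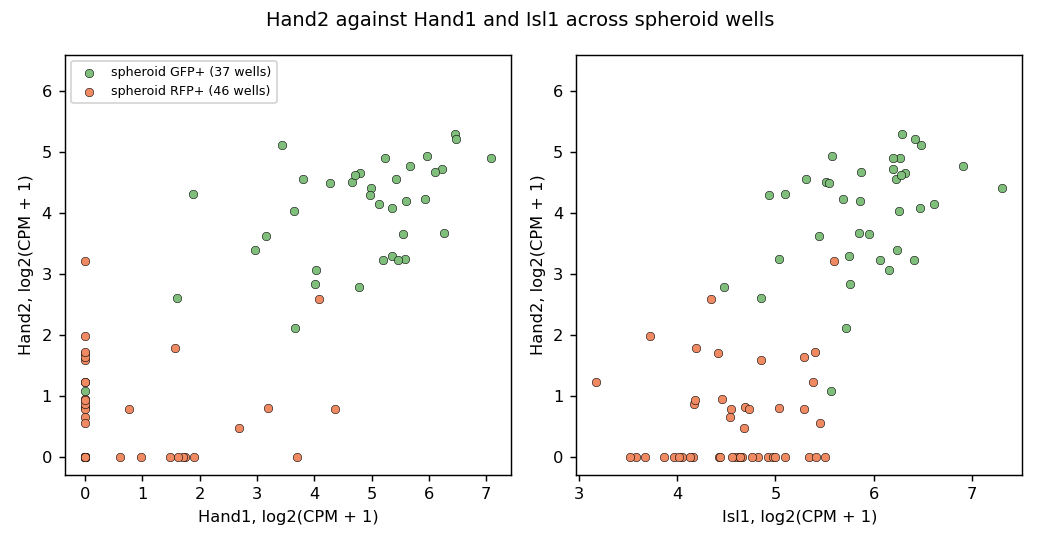
Hand2 against Hand1 (left) and against Isl1 (right), each as log2(CPM + 1), with 1 point per spheroid well (37 GFP+ wells without C9, and 46 RFP+ wells). Hand2 and Hand1 rise together among GFP+ wells (r 0.58), and most RFP+ wells lie on or near 0 for both.

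Of 24 relations of the 4 read members with the pluripotency and cardiomyocyte sums and library size, added after the values were seen, 1 passed adjustment by rank: Hand2 with the cardiomyocyte sum in spheroid GFP+ wells (rho 0.53, permutation p = 0.0009, adjusted p = 0.0216). Its Pearson r was 0.41 (permutation p = 0.0116, adjusted p = 0.258) and 0.39 without 2 wells. No member had a relation with library size that passed (Spearman rho from -0.12 to 0.29 in GFP+ wells).

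The genes whose pattern over wells was most like each member's are given as a description, by Spearman's rho over wells of the same plate, with no test. For Isl1, over 37 GFP+ wells and 8911 genes, they were Crabp1, a retinoic acid binding protein (rho 0.77), H2afz, a histone variant (0.76), and Cmc2 (0.73), and Hand2 ranked 326. For Hand1 they were Ap2b1, a clathrin adaptor subunit (0.66), Arhgap29 (0.64) and Igsf3 (0.59), with Hand2 in rank 20. For Hand2 they were Slc25a4, the mitochondrial ADP/ATP carrier of heart and muscle (0.79), Rgs5, a regulator of G protein signaling (0.78), and Gpc3, a glypican (0.77), with Hand1 in rank 241. For Hopx, over 46 RFP+ wells and 8413 genes, they included Supt3 (0.60) and Foxp1, a forkhead factor (0.57). For Nkx2-5 the leading genes (Ngdn, Galt and Asxl1, rho 0.60, 0.57 and 0.56) rest on 2 wells with reads.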

How the data were processed

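RNA-seq libraries of 10 sorted cells were grouped by their labels into 5 embryo GFP+, 4 embryo RFP+, 38 spheroid GFP+ and 46 spheroid RFP+ samples. The authors used Trimmomatic 0.36 to trim reads (quality of at least 35, length of at least 36), aligned them to mm10 with HISAT2 2.0.4 and deposited whole-number read counts per gene from featureCounts 1.5.2. The strand setting and annotation are not given in the sources used here. Counts without molecular identifiers include PCR copies.

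From these counts, CPM were scaled by TMM over all 93 libraries. edgeR 4.0.16 (R 4.3.3) fitted the quasi-likelihood test with legacy deviances separately for each pair of groups, after filterByExpr (minimum count 10, minimum total 15), with Benjamini-Hochberg adjustment over all genes tested and a call at adjusted p under 0.1, the study's threshold. edgeR was the main tool and DESeq2 1.42.0, the study's tool, an alternative. Members were also tested by two-sided permutation of mean log2 CPM (prior count 2), exact or with 100000 resamples (scipy 1.17.1). Other settings (scaling, filter, deviances, threshold, summed wells, plate row, shallow library, prior count, each embryo library left out) are described at the end. The RFP+ spheroid wells of plate columns 3 and 4 were more alike within a row (chi-square per degree of freedom 1.33 to 2.29) than those of columns 1 and 2 (4.40 to 7.88). They differed by more than counting noise, which does not show that they held separate cells. They were kept apart in the main runs, so n = 46 may count some material more than once.

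Named genes were the 5 members, up to 4 called genes per list with the largest change in a comparison, and 3 genes per member by likeness over wells. A few genes that this rule names are not reported here, but stay in the counts and medians of their lists. Some genes were named after their values were seen. These were Tcf12, Hdac2, Popdc2, Smyd1, Myl2 and Smarcd3 in spheroids, Tbx5, Tbx20 and Actc1 where they were not called, and Mef2d in RFP+ cells. The markers Hba-x, Cer1, Tdgf1, Pou5f1 and Zfp42 were also named in this way. The members and lists were chosen with earlier results of these data known. Gene positions and exon lengths are from GENCODE M21, and promoter sequences, which matched 4 of the 5 members, from RefSeq.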

Additional observations from a re-analysis of the deposited data

How the results depend on the processing

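In the embryo, the main run called 858 of 8503 genes. The number was 1945 of 13897 with DESeq2, 2000 of 15111 without the filter on low counts and 1765 of 8503 with adjusted deviances. It was 613 to 1044 when each embryo library was left out. There, 1 member was called with DESeq2 (Hand1) and 1 with adjusted deviances (Hopx), and 0 with each library left out. The log2 fold change of Isl1 there was -0.00527 without the filter and -0.19 to 0.31 with a library left out, and that of Hand2 was -0.60 to 0.90. DESeq2's size factors moved the median gene from -0.09 to 0.04. With a library left out, the differences in mean log2 CPM were -0.53 to 0.15 for Isl1 and -1.31 to 0.0408 for Hand2. In spheroids, 13109 genes were called without the filter, against 7747, and the 4 members kept their calls and directions under each alternative run.

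Between spheroid and embryo GFP+ cells the main run called 68.0% of genes. There, 2 members were called with DESeq2 and without the filter (Isl1 and Nkx2-5), and 1 to 2 with a library left out. The share of all genes called is not set beside the members for these alternative runs, or for those between RFP+ cells below. So these counts of members are no result about the members. The log2 fold change of Hand1 was -0.43 with DESeq2, -0.42 with its size factors, -0.0539 with total counts and -0.28 to 0.65 with a library left out. That of Hand2 was -0.0352 with DESeq2, -0.0397 with its size factors, -0.0097 with adjusted deviances and -0.0437 to 1.54 with a library left out, and that of Hopx was -0.38 to 0.62. Between RFP+ cells the main run called 42.6% of genes. There, 4 members were called without the filter (with Nkx2-5 and Hand2), 2 to 3 with a library left out, and Hand1 was at -0.61 to 1.11. The cause of these shifts was not tested.

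With total counts, rho of Nkx2-5 was 0.0638 with Isl1, 0.0845 with Hand1 and 0.18 with Hand2 in GFP+ wells, and -0.0709 with Hand2 and 0.28 with Hopx in RFP+ wells, where Hand1 and Hopx gave 0.0732. With wells of columns 3 and 4 summed, rho of Nkx2-5 and Hopx was 0.00187 and of Hand1 and Hopx 0.059. No paired analysis was possible because the labels number no replicates and tie no wells to a shared embryo or differentiation. In single wells, no Nkx2-5 read allows up to 6.77 CPM in spheroid RFP+ cells and 3.72 CPM in embryo GFP+ cells. Between the embryo groups, 5 against 4 wells allow no exact p below 0.00794.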
